A study of Homo sapiens with 8 samples.

Results

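The SLC25 family comprises the mitochondrial carriers, and their mRNAs were followed here through RNA immunoprecipitation (RIP) with an antibody against RPS6, one of the proteins of the small subunit of the ribosome. Members were all listed genes named SLC25A and a number, which gave 49 entries of 57756 genes. These entries carry 48 names, because SLC25A10 is listed as 2 entries of the same locus. The rule uses names and no measured value. Each of 4 human cancer cell lines gave 1 RIP library and 1 input library, which is total RNA from an aliquot of the same lysate, so 8 libraries form 4 pairs and no cell line has a replicate. The lines are Hep3B (hepatocellular carcinoma), HCT116 (colorectal), DU145 (prostate), and SW1990 (pancreatic). The titles of the liver cancer pair are short for Hep3B while its cell line field names Huh7, and the pair is called Hep3B here. A RIP with a control antibody was not analysed here, so a ratio of RIP to input shows how far an RNA is enriched relative to the other RNAs of the same library.

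Mitochondrial carriers are encoded in the nucleus, made by cytosolic ribosomes, and inserted into the inner mitochondrial membrane, where most exchange a metabolite of the matrix for one of the cytosol. Their substrates include ADP and ATP, phosphate, citrate and other carboxylates, amino acids, acylcarnitines, coenzymes, nucleotides, glutathione, and iron. Most carriers reach the inner membrane by the receptor TOMM70 of the outer membrane, small TIM chaperones, and the TIM22 insertase, without a cleaved targeting sequence. Exceptions to this location include SLC25A17 of the peroxisome and SLC25A46 of the outer mitochondrial membrane.

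The libraries held between 34630346 and 54209614 fragments. Values per length are given as FPKM (fragments for each kilobase of the transcript and each 1000000 fragments mapped), always for Hep3B, HCT116, DU145, and SW1990 cells in this order. Carrier mRNAs took 0.167% of all fragments in the Hep3B input and between 0.257% and 0.410% in the other 7 libraries. The FPKM values of the Hep3B input sum to 1.66e+06, against 6.20e+05 to 9.82e+05 in the other 7, so FPKM values of this library compare less well with those of the others. The hepatocyte gene ALB stood at 5030 and 9582 FPKM in the Hep3B input and RIP and at no more than 2.54 FPKM elsewhere. Markers of the labelled tissue were scarce in DU145 cells, where the prostate genes KLK2 and KLK3 were at 0, and in HCT116 cells, where only CDX2 (6.25 FPKM in the input) of the intestinal list reached 1 FPKM. CDX2 was higher in the SW1990 input (86.6 FPKM). Of the 4 markers of pancreatic ducts, SOX9 (60.6 FPKM) was highest in the SW1990 input, while KRT19 (229 FPKM) was highest in the HCT116 input (570.3 FPKM) and KRT7 (3.17 FPKM) and MUC1 (1.16 FPKM) in the DU145 input (254 and 76.6 FPKM). The leukocyte genes PTPRC and CD3E were at or below 0.0402 FPKM in all 8 libraries.

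The starts of the phosphate and ADP/ATP carrier mRNAs are shown first, because the first bases of an mRNA define a known class with its own control of translation, the terminal oligopyrimidine mRNAs, which start with C and a run of C and T and include those of ribosomal proteins. Each window runs from 10 bases before the start annotated by RefSeq (GRCh38.p14) through the first 20 bases of the transcript, 5′ to 3′, and capitals mark the first 8 bases of the transcript.
SLC25A3 (chr12:98593676-98593705, plus strand): gacgtccggcCTCTGTGAgccgcaaccttt
SLC25A4 (chr4:185143256-185143285, plus strand): gccaggcggcGGCCCCCTagcgtcgcgcag
SLC25A5 (chrX:119468434-119468463, plus strand): cttcgctccgCCCCGCAGcgccggagtcaa
SLC25A6 (chrX:1392094-1392123, minus strand): gctgctccgtCCTTTCGGtccaggcggcgg
A start of C followed by 4 bases that are each C or T, searched on the transcript strand at the annotated start alone, was found for SLC25A6 in this set. Of 40 members with a RefSeq promoter entry it was found for 3 (7.5%), namely SLC25A6, SLC25A21, and SLC25A22, against 4.04% of 27305 promoters of all genes. The other 2 starts of this kind are as follows.
SLC25A21 (chr14:37172587-37172616, minus strand): atccgcgggtCTTCTTTCcagagacatttt
SLC25A22 (chr11:798262-798291, minus strand): gcggacgcgcCTCCCCGCctaggtgctggc
Among the first 8 bases, the median number of C and T was 4 in the members and 4 in all genes. These letters are a description of the annotated start, which need not be the start used in these cells, and of the 3 mRNAs SLC25A22 was higher in RIP, SLC25A21 lower, and SLC25A6 past the threshold in neither direction.

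RIP and input were compared over all genes from their estimated counts in a quasi-likelihood fit of edgeR, with the cell line as a block and Benjamini-Hochberg adjustment. Fold changes are those of this count fit unless another measure is named, and they can differ from ratios of the FPKM values shown. Of 19921 genes tested, 26.5% were higher in RIP and 24.9% lower at an adjusted p under 0.05. The 46 member entries tested included 13 higher in RIP (28.3%), 16 lower (34.8%), and 17 past the threshold in neither direction (37.0%). The family was thus divided between both directions, with a share of higher members near that of all genes, and the difference in the share of lower members was not tested. Its median log2 fold change was 0.14 with quartiles of -1.18 and 0.81, against -0.05 with quartiles of -1.12 and 0.99 for all genes tested. Within each cell line, 27, 25, 25, and 25 of the 46 had a RIP value above their input value, against 10828, 10137, 10410, and 10007 of all 19921 genes. The ratio of RIP to input was highest in Hep3B cells for 24 of the 46 (52.2%, against 32.9% of all genes), beside the high FPKM sum of the Hep3B input, whose part in this was not tested. With 1 pair per cell line, the p-values measure the spread of this ratio between cell lines.

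By FPKM, 12 higher and 12 lower ones of the called members moved the same way in 4 of 4 cell lines. The exceptions were SLC25A42 among the higher and SLC25A16, SLC25A21, SLC25A30, and SLC25A44 among the lower, each with 3 of 4. These directions rest on few fragments for SLC25A12 (5 in the input and 2 in RIP) and SLC25A24 (10 and 0) in Hep3B cells and for SLC25A21 (1 and 2) in SW1990 cells. RIP libraries also held few fragments of SLC25A21 (1) in Hep3B cells and of SLC25A27 (4) and SLC25A53 (8) in DU145 cells. In 4 members all RIP values lay above all input values (8.70%, against 10.9% of all genes), and in 7 all lay below (15.2%, against 8.17%). The former included SLC25A1, SLC25A25, and SLC25A34, of which SLC25A34 did not pass the test and had between 6 and 52 fragments in a library. The latter were SLC25A14, SLC25A27, SLC25A36, SLC25A40, SLC25A46, SLC25A51, and SLC25A53. A fit without the cell line as a block called 3 higher (SLC25A1 and SLC25A25 among them) and 3 lower (SLC25A36, SLC25A40, SLC25A46), and these 6 calls held under all 12 alternatives. With library totals in place of TMM scaling, the median of all genes shifted by -0.35 on the log2 scale and 7 members were higher and 18 lower, whereas limma on log2(FPKM + 1) shifted that median by 0.13 and gave 14 higher and 9 lower. Library totals ended the calls of SLC25A3, SLC25A11, SLC25A12, SLC25A20, SLC25A38, and SLC25A39, and limma on log2(FPKM + 1) those of SLC25A12, SLC25A16, SLC25A21, SLC25A24, SLC25A30, SLC25A32, SLC25A42, SLC25A43, and SLC25A44. Without a minimum count, SLC25A3, SLC25A12, and SLC25A20 did not pass.

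**Figure D1:**
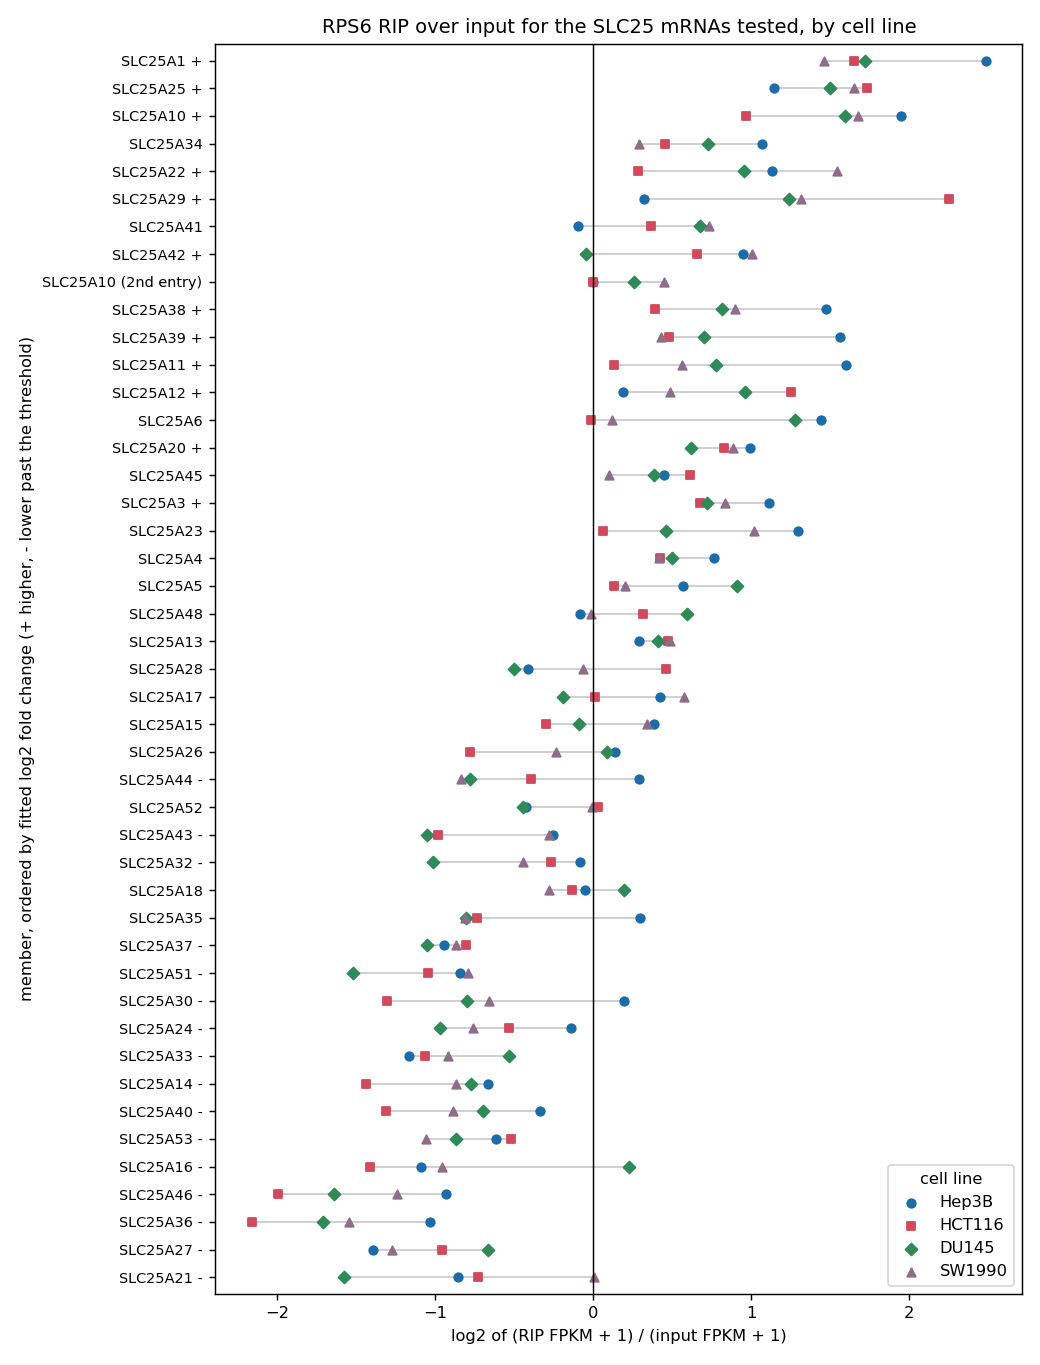
Log2 ratio of RIP to input, as log2 of (FPKM + 1) in RIP over input, for 45 of the 46 member entries tested (rows, ordered by the fitted log2 fold change), with 1 point per cell line and a grey line over their range. A plus or minus after a name marks 12 members higher and 16 lower in RIP at an adjusted p under 0.05; the points of SLC25A1 all lie right of 1 and those of SLC25A36 all left of -1.

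The phosphate carrier and the ADP/ATP carriers, which bring phosphate and ADP into the matrix for ATP synthesis and return ATP to the cytosol, supplied the most abundant members. SLC25A3 (the phosphate carrier, chr12:98987369-98995946 on hg19, the build of all loci given here) stood at 161, 607, 324, and 529 FPKM in the 4 inputs and at 349.8, 971, 534, and 941 FPKM in the 4 RIP libraries. RIP exceeded input in every cell line, while the groups overlapped because Hep3B cells were low and HCT116 cells high in both. SLC25A3 rose in RIP (log2 fold change 0.60 ± 0.20 SE, edgeR adjusted p = 0.0282, 1.52-fold in the count fit). By FPKM, its ratios of RIP to input were larger and ran from 1.60 to 2.17. Its call was lost without Hep3B, DU145, or SW1990 cells (log2 fold changes 0.45, 0.64, and 0.57, with edgeR adjusted p = 0.126, 0.0928, and 0.0688) and with library totals (0.25). The snoRNA SNORA53 lies within the same locus and had a log2 fold change of -4.16.

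SLC25A5 (ANT2, chrX:118599997-118605282), the ADP/ATP carrier of proliferating cells, was next in abundance with 204, 645, 150.0, and 554 FPKM in inputs and 303, 705, 282, and 636 FPKM in RIP. SLC25A6 (ANT3, chrX:1505045-1511617), which is expressed in most tissues, had 46.7, 243, 123, and 576 FPKM in inputs and 128, 240.4, 299, and 626 FPKM in RIP. SLC25A4 (ANT1, chr4:186064395-186071536), the isoform of heart and skeletal muscle, had 12.8, 37.2, 3.87, and 24.8 FPKM in inputs and 22.5, 50.2, 5.88, and 33.5 FPKM in RIP. SLC25A4 and SLC25A5 were higher in RIP in 4 of 4 cell lines and SLC25A6 in 3 of 4, the exception being HCT116 cells, but the 3 isoforms did not pass the threshold. Their log2 fold changes were 0.69 (SE 0.30, edgeR adjusted p = 0.0816) for SLC25A6, 0.36 (SE 0.18, edgeR adjusted p = 0.121) for SLC25A4, and 0.36 (SE 0.22, edgeR adjusted p = 0.2) for SLC25A5. The value of SLC25A6 passed without HCT116 cells (log2 fold change 0.97, edgeR adjusted p = 0.0338), without SW1990 cells (0.91, 0.0493), and without a minimum count (0.64, 0.0259). SLC25A4 passed with DESeq2 (0.37, adjusted p = 0.0415) and with limma on log2(FPKM + 1) and log2(FPKM + 0.1) (0.53 and 0.56, adjusted p = 0.0364 and 0.0326). With library totals it stood at 0.01. SLC25A31, an ADP/ATP carrier of the testis, was listed at 0 in all 8 libraries.

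**Figure D2:**
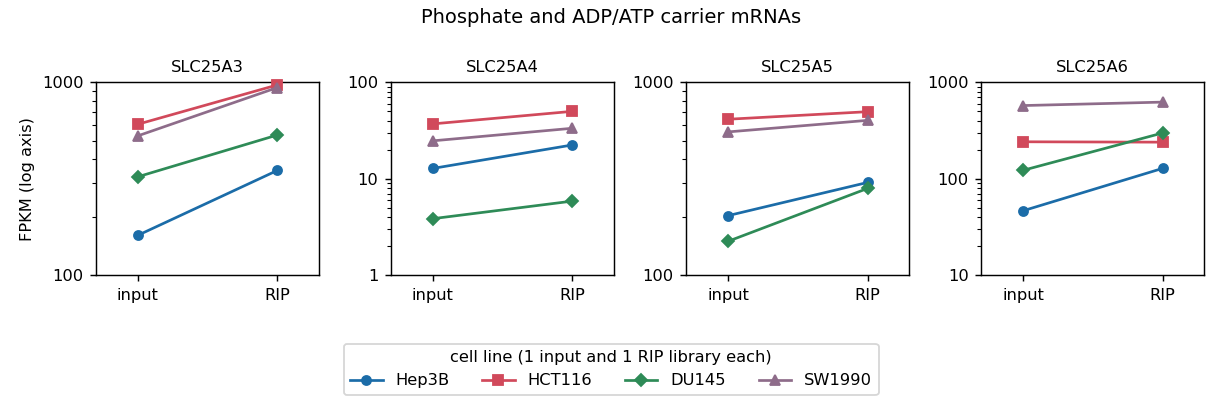
FPKM on a log axis in the input and RIP library of each cell line for SLC25A3, SLC25A4, SLC25A5, and SLC25A6, with 1 line per cell line and a separate axis range per gene. SLC25A3 rises from input to RIP in 4 of 4 cell lines, whereas SLC25A6 is level in HCT116 cells (243 and 240.4 FPKM).

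Together SLC25A3, SLC25A5, and SLC25A6 made up between 35.4% and 58.8% of the summed member FPKM of a library. The share was lowest in the Hep3B RIP and highest in the SW1990 input. In the order of mean input level, SLC25A3 (405 FPKM) and SLC25A5 (388 FPKM) came first, followed by SLC25A6 (247 FPKM), SLC25A39 (174.5 FPKM), SLC25A1 (86.9 FPKM), and SLC25A11 (82.5 FPKM). The input ranges of neighbours in this order overlapped in every case, as for SLC25A3 (161 to 607 FPKM) and SLC25A5 (150.0 to 645 FPKM). These ranges are spreads between cell lines, and differences between neighbours within a cell line were not tested. SLC25A3 and SLC25A5 alone exceeded 100 FPKM in all 8 libraries. Of the 49 entries, 24 reached 5 FPKM and 33 reached 1 FPKM in all 8 libraries, and 5 stayed under 1 FPKM in all 8.

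The carriers of citrate and other carboxylates included the mRNA with the largest log2 fold change of the members tested. SLC25A1 (chr22:19163095-19166343), the citrate carrier that exports citrate for fatty acid and sterol synthesis, stood at 77.4, 91.6, 66.6, and 112 FPKM in inputs and 438, 289, 222, and 310.3 FPKM in RIP. Every RIP library exceeded every input, and SLC25A1 rose 3.79-fold (log2 fold change 1.92 ± 0.24 SE, edgeR adjusted p = 9.84e-05). SLC25A10 (chr17:79670387-79688042), the dicarboxylate carrier that exchanges malate or succinate for phosphate, had 22.02, 48.03, 22.2, and 89.7 FPKM in inputs and 87.8, 94.9, 68.8, and 288 FPKM in RIP. It rose 2.94-fold in RIP (log2 fold change 1.56 ± 0.22 SE, edgeR adjusted p = 0.000186), with RIP above its own input in 4 of 4 cell lines but with overlapping groups, since the SW1990 input (89.7 FPKM) exceeded the DU145 RIP (68.8 FPKM). MRPL12 is listed at the same locus (log2 fold change 0.65), and the second SLC25A10 entry stayed at or below 0.808 FPKM.

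SLC25A11, the oxoglutarate carrier of the malate-aspartate shuttle, ranged over 48.9 to 110.2 FPKM in inputs and 107 to 163 FPKM in RIP and rose as well (log2 fold change 0.80 ± 0.24 SE, edgeR adjusted p = 0.0154). Its call was lost without Hep3B cells (log2 fold change 0.44, edgeR adjusted p = 0.0972) and with library totals, and its locus is shared with RNF167 (log2 fold change 1.04). SLC25A21, which carries oxoadipate from the breakdown of lysine and tryptophan, was the exception of the class. It had 0.982, 1.62, 65.6, and 0.0312 FPKM in inputs and 0.0930, 0.579, 21.3, and 0.0352 FPKM in RIP, so that nearly all its signal came from DU145 cells, with 7622 fragments in the input and 1012 in RIP. SW1990 cells gave 1 and 2 fragments, too few for a ratio. SLC25A21 fell in RIP (log2 fold change -2.22 ± 0.43 SE, edgeR adjusted p = 0.00162), and without DU145 cells it did not pass (-2.30, edgeR adjusted p = 0.135). In its locus lie PAX9 and the antisense gene SLC25A21-AS1.

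The ATP-Mg/phosphate carriers, which adjust the adenine nucleotide content of the matrix and mostly respond to calcium, went in both directions. SLC25A25 (chr9:130823512-130871604) had 6.24, 5.40, 3.77, and 2.99 FPKM in inputs and 14.98, 20.2, 12.5, and 11.5 FPKM in RIP. All RIP values lay above all inputs, and SLC25A25 rose 3.20-fold (log2 fold change 1.68 ± 0.21 SE, edgeR adjusted p = 8.3e-05). SLC25A24, by contrast, had 0.103, 26.8, 24.8, and 49.2 FPKM in inputs and 0, 18.2, 12.2, and 28.5 FPKM in RIP and fell (log2 fold change -1.30 ± 0.29 SE, edgeR adjusted p = 0.00362). In Hep3B cells it was nearly undetected, with 10 fragments in the input and 0 in RIP, and in the other 3 cell lines RIP was below input. SLC25A23, the most abundant of this class with 22.8 to 76.97 FPKM in inputs, had a log2 fold change of 0.44 (SE 0.21, edgeR adjusted p = 0.111). It passed with limma on log2(FPKM + 1) and log2(FPKM + 0.1) (0.71 and 0.72, adjusted p = 0.0352 and 0.0336). SLC25A41 stayed at or below 1.66 FPKM in all 8 libraries.

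The annotated starts of mRNAs at both ends of the family are shown for 5 members whose calls held under all alternatives and that have a RefSeq promoter entry. SLC25A1 and SLC25A25 were higher in RIP and SLC25A36, SLC25A40, and SLC25A46 lower, and capitals again mark the first 8 bases of the transcript.
SLC25A1 (chr22:19178717-19178746, minus strand): accgcggaccGAGCGCGGagttctggagtc
SLC25A25 (chr9:128098497-128098526, plus strand): cgggaccggcAGCATTTAgggaacttgctc
SLC25A36 (chr3:140941826-140941855, plus strand): cgtcgctttcAGCCTCTGgtgaagggcggc
SLC25A40 (chr7:87876341-87876370, minus strand): tcacgccgccGTCCTTCTcgcgcctcgctc
SLC25A46 (chr5:110738997-110739026, plus strand): tccggttgtcAGAATTTAcccctgacgcgg
None of these 5 begins with C followed by 4 bases of C or T. The C and T bases among the first 8 number 2 and 4 in the higher mRNAs and 5, 7, and 3 in the lower ones.

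**Figure D3:**
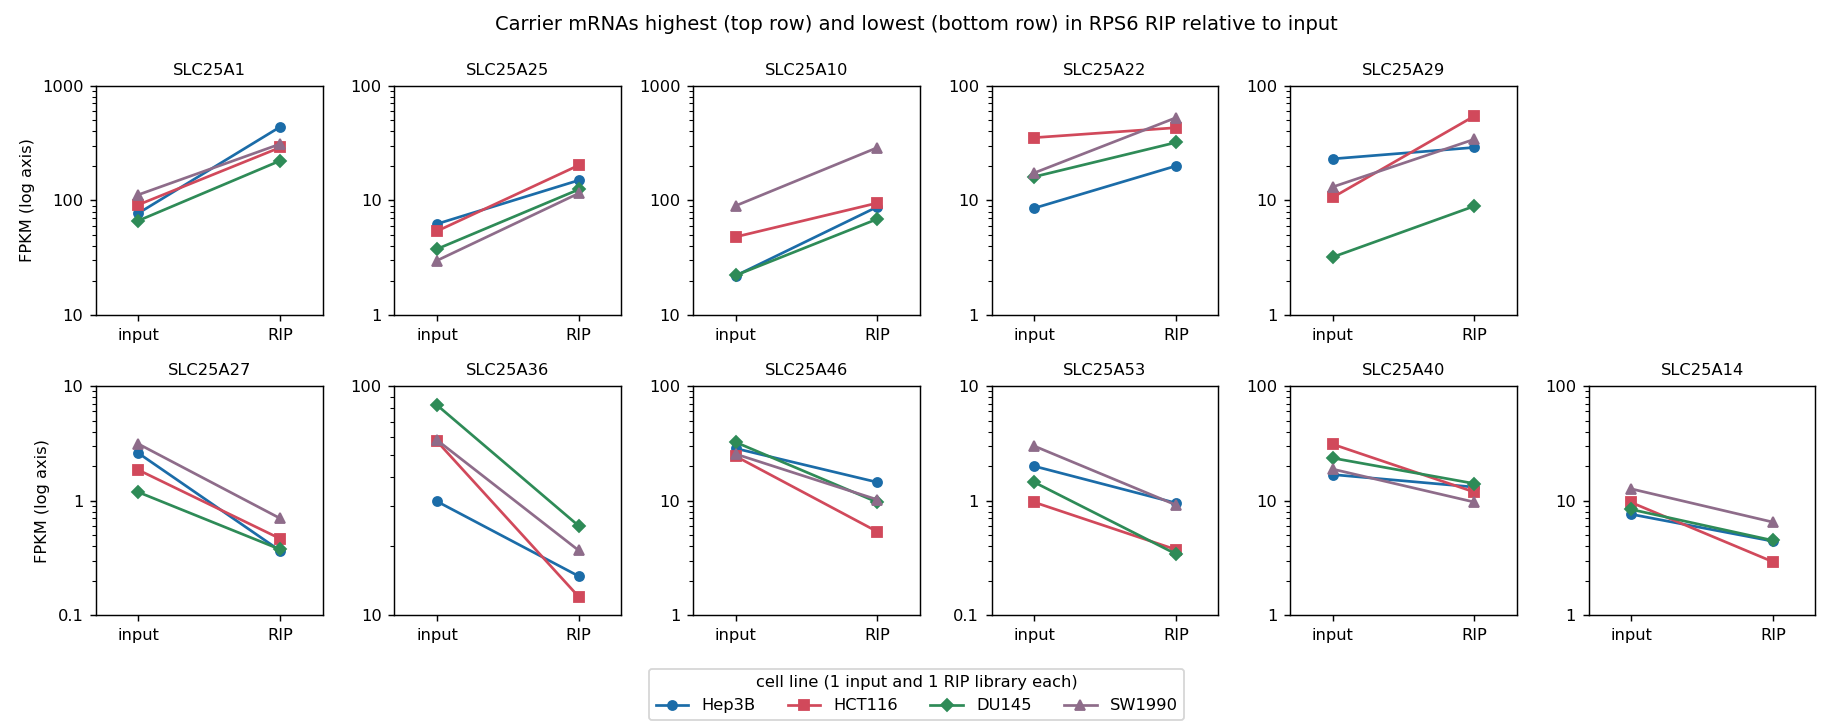
FPKM on a log axis in the input and RIP library of each cell line for 5 of the members with the highest (top row) and the 6 with the lowest (bottom row) log2 fold change among those called with the same direction in 4 of 4 cell lines. Each line is 1 cell line and each gene has its own axis range; lines rise for SLC25A1, SLC25A25, SLC25A10, SLC25A22, and SLC25A29 and fall for SLC25A27, SLC25A36, SLC25A46, SLC25A53, SLC25A40, and SLC25A14.

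Amino acid carriers numbered 8 among the members tested, of which 4 were higher in RIP and 1 lower, against 26.5% and 24.9% of all genes. SLC25A22 (chr11:790475-798316), a glutamate carrier, had 8.55, 35.2, 16.1, and 17.4 FPKM in inputs and 19.96, 43.02, 31.99, and 52.5 FPKM in RIP. RIP exceeded input in every cell line, least in HCT116 cells, and SLC25A22 rose 2.32-fold (log2 fold change 1.21 ± 0.20 SE, edgeR adjusted p = 0.000619). SLC25A29 (chr14:100673744-100772884), which carries basic amino acids such as arginine and lysine, had 23.03, 10.6, 3.20, and 13.1 FPKM in inputs and 28.96, 54.4, 8.92, and 34.1 FPKM in RIP. Its ratio of RIP to input ran from 1.26 in Hep3B cells to 5.12 in HCT116 cells, the widest spread among the 6 highest members, and SLC25A29 rose overall (log2 fold change 1.16 ± 0.30 SE, edgeR adjusted p = 0.00848). SLC25A38, the glycine carrier needed for heme synthesis, ranged over 12.6 to 30.2 FPKM in inputs and 23.9 to 57.1 FPKM in RIP and rose (log2 fold change 0.85 ± 0.21 SE, edgeR adjusted p = 0.00710), a call lost with library totals (0.50).

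The pair of aspartate/glutamate carriers, SLC25A12 (aralar) and SLC25A13 (citrin), differed most in Hep3B cells. SLC25A12 had 0.0601, 9.16, 5.04, and 6.26 FPKM in inputs and 0.210, 23.2, 10.8, and 9.17 FPKM in RIP, with 5 and 2 fragments in Hep3B cells. SLC25A13, the isoform known from liver, was highest in the Hep3B input (33.9 FPKM) and ranged over 8.61 to 33.9 FPKM in inputs. SLC25A12 rose by the test (log2 fold change 0.78 ± 0.29 SE, edgeR adjusted p = 0.0461), but the call was lost without HCT116, DU145, or SW1990 cells (log2 fold changes 0.63, 0.60, and 0.87), with a minimum mean count of 50 (0.71) or none (0.70), with library totals (0.38), and with limma on log2(FPKM + 1) (0.72). SLC25A13 did not pass (log2 fold change 0.22 ± 0.18 SE, edgeR adjusted p = 0.349), and its log2 fold change turned to -0.13 with library totals. SLC25A12 shares its locus with HAT1 (log2 fold change -0.89) and METAP1D (-0.71).

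SLC25A44, the carrier of branched-chain amino acids, ranged over 6.98 to 50.4 FPKM in inputs and fell slightly in RIP (log2 fold change -0.53 ± 0.20 SE, edgeR adjusted p = 0.0447). The exception to its direction was Hep3B cells (27.7 FPKM in the input and 34.1 FPKM in RIP), and the call was lost without HCT116, DU145, or SW1990 cells (-0.43, -0.49, and -0.48). SLC25A15, the ornithine carrier of the urea cycle, had 5.85, 22.5, 19.7, and 18.9 FPKM in inputs and was lowest in Hep3B cells, with a log2 fold change of -0.17 (SE 0.21, edgeR adjusted p = 0.528). SLC25A18, a glutamate carrier, stayed at or below 0.685 FPKM, and SLC25A2, an ornithine carrier, at or below 0.727 FPKM, which was too low for testing. SLC25A20, the carnitine/acylcarnitine carrier for fatty acid oxidation, ranged over 5.83 to 11.5 FPKM in inputs and 9.49 to 23.9 FPKM in RIP. RIP exceeded input in 4 of 4 cell lines by 1.63-fold to 2.07-fold, and SLC25A20 rose (log2 fold change 0.67 ± 0.21 SE, edgeR adjusted p = 0.0241), a call lost without Hep3B, DU145, or SW1990 cells (0.52, 0.70, and 0.63), with library totals (0.32, edgeR adjusted p = 0.275), and without a minimum count (0.62, edgeR adjusted p = 0.0813).

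Carriers of coenzymes and nucleotides, 10 in all, had 2 members higher, 5 lower, and 3 past the threshold in neither direction, against 26.5% higher and 24.9% lower over all genes. SLC25A42, a coenzyme A carrier, ranged over 3.28 to 11.8 FPKM in inputs and rose (log2 fold change 1.06 ± 0.20 SE, edgeR adjusted p = 0.00115), except in DU145 cells (3.39 and 3.25 FPKM), and its call was lost with limma on log2(FPKM + 1) and log2(FPKM + 0.1) (0.64 and 0.71, adjusted p = 0.0682 and 0.0611). The related SLC25A16 fell (log2 fold change -1.51 ± 0.26 SE, edgeR adjusted p = 0.000740). Its FPKM fell in 3 of 4 cell lines and was 11.2 in the input and 13.3 in RIP of DU145 cells, where its fragments nevertheless went from 1185 to 331, and its call was lost with limma on log2(FPKM + 1).

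SLC25A36 (chr3:140660672-140698775), a pyrimidine nucleotide carrier, had the smallest adjusted p of all members tested. It had 31.4, 57.4, 82.6, and 58.1 FPKM in inputs and 14.8, 12.1, 24.6, and 19.2 FPKM in RIP. The RIP libraries lay below the inputs without overlap, and SLC25A36 fell 4.04-fold (log2 fold change -2.01 ± 0.19 SE, edgeR adjusted p = 2.08e-05). SLC25A33, the other pyrimidine nucleotide carrier, ranged over 5.82 to 19.4 FPKM in inputs and 3.71 to 8.06 FPKM in RIP and fell in 4 of 4 cell lines (log2 fold change -1.34 ± 0.21 SE, edgeR adjusted p = 0.000343). SLC25A51, the NAD+ carrier, ranged over 18.1 to 53.2 FPKM in inputs and 8.26 to 17.9 FPKM in RIP and fell (log2 fold change -1.19 ± 0.21 SE, edgeR adjusted p = 0.000937), also without overlap, although its listed locus holds 15 other genes. The folate carrier SLC25A32 fell as well (log2 fold change -0.77 ± 0.20 SE, edgeR adjusted p = 0.00712), but not past the threshold without DU145 cells (-0.62, edgeR adjusted p = 0.0631). SLC25A26, the S-adenosylmethionine carrier, had a log2 fold change of -0.48 (SE 0.24, edgeR adjusted p = 0.121) and passed with library totals (-0.83, edgeR adjusted p = 0.0192). SLC25A17, of the peroxisome, had a log2 fold change of -0.04 (SE 0.21, edgeR adjusted p = 0.876). The value of SLC25A17 was 0.00296 without HCT116 cells and 0.08 without DU145 cells. SLC25A52, a close relative of SLC25A51, did not exceed 1.21 FPKM.

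**Figure D4:**
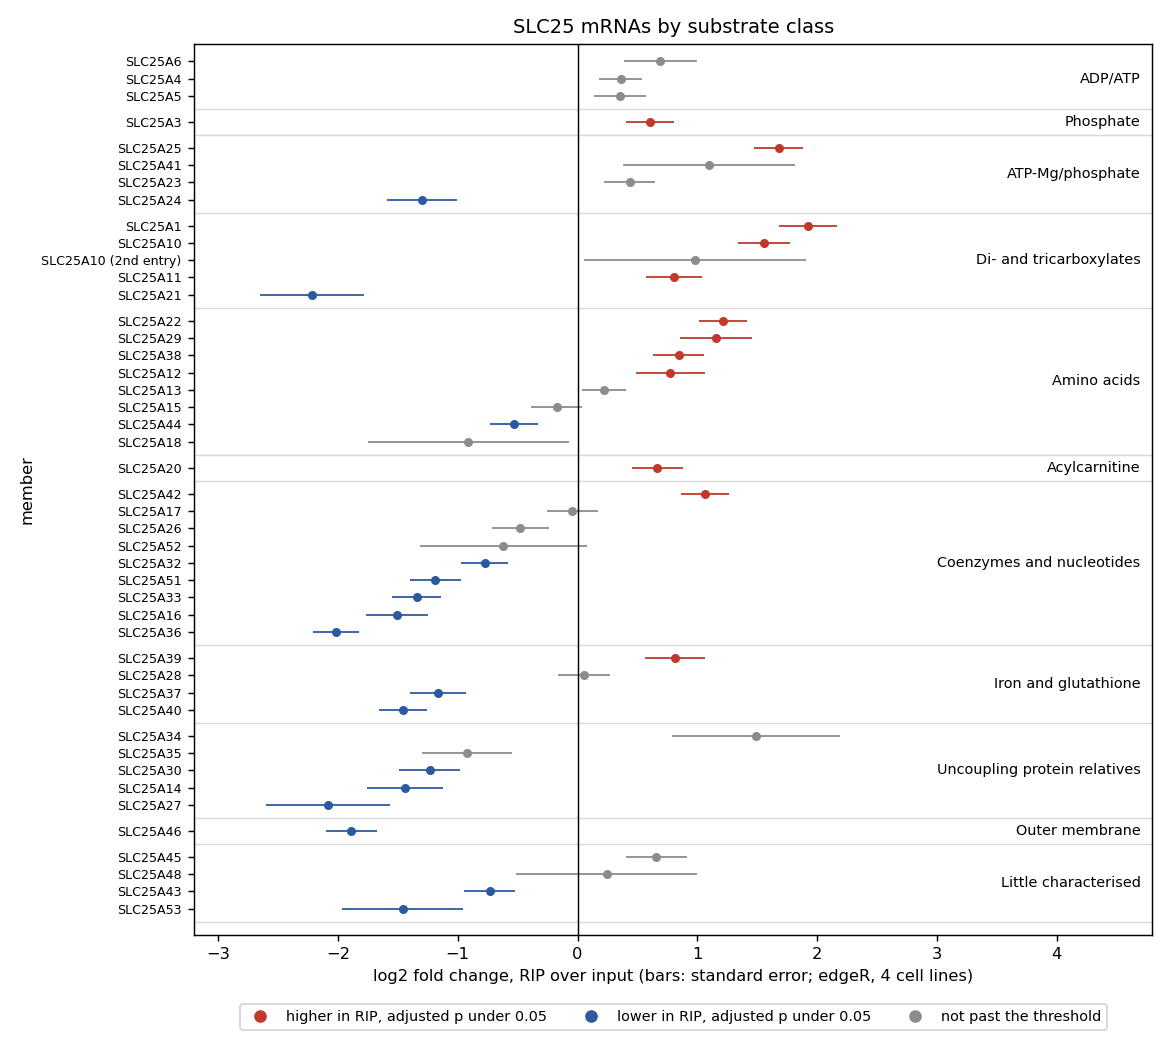
Fitted log2 fold change of RIP over input (points) with its standard error (bars) for 45 of the 46 member entries tested, from edgeR over 4 cell lines, grouped by substrate. Red marks members higher and blue members lower at an adjusted p under 0.05; SLC25A1 lies farthest right (1.92) and SLC25A21, with a wide bar, farthest left (-2.22).

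Carriers of iron and glutathione, which serve heme and iron-sulfur cluster synthesis and redox balance, gave 1 higher, 2 lower, and 1 member past the threshold in neither direction, against 26.5% higher and 24.9% lower over all genes. SLC25A39, a glutathione carrier, was the fourth most abundant member with 59.05 to 269 FPKM in inputs and 176 to 362 FPKM in RIP, and it rose (log2 fold change 0.81 ± 0.25 SE, edgeR adjusted p = 0.0204). Without Hep3B or DU145 cells it did not pass (0.43 and 0.83, edgeR adjusted p = 0.128 and 0.0614), nor with library totals (0.46, edgeR adjusted p = 0.1895). Its relative SLC25A40 (chr7:87462883-87538856) had 16.9, 31.1, 23.5, and 18.9 FPKM in inputs and 13.1, 11.9, 14.1, and 9.72 FPKM in RIP. The inputs lay above the RIP libraries without overlap, and SLC25A40 fell 2.74-fold in the count fit (log2 fold change -1.46 ± 0.20 SE, edgeR adjusted p = 0.000184). By FPKM, SLC25A40 fell less, with ratios of RIP to input of 0.778, 0.383, 0.599, and 0.516 and a limma log2 fold change of -0.81 on log2(FPKM + 1). It shares its listed locus with DBF4, a cell cycle gene that also fell (log2 fold change -2.15). SLC25A37 (mitoferrin 1), the iron importer of erythroid cells, ranged over 7.74 to 90.00 FPKM in inputs with its highest level in DU145 cells, and fell in 4 of 4 cell lines (log2 fold change -1.16 ± 0.23 SE, edgeR adjusted p = 0.00179). The more widely expressed SLC25A28 (mitoferrin 2) had a log2 fold change of 0.06 (SE 0.21, edgeR adjusted p = 0.848), with RIP above input in HCT116 cells alone, and turned to -0.11 without HCT116 cells and to -0.30 with library totals.

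Some carriers of the same substrate were thus found on different sides, and their log2 ratios on the log2(FPKM + 1) scale were set side by side as a description, with pairs chosen after their values were seen. SLC25A39 exceeded SLC25A40 by 1.60 ± 0.29 (SD, n = 4 cell lines), with differences of 1.90, 1.79, 1.40, and 1.31. SLC25A25 exceeded SLC25A24 by 2.11 ± 0.56 and SLC25A23 exceeded SLC25A24 by 1.31 ± 0.50, both in 4 of 4 cell lines. In Hep3B cells SLC25A24 had 10 and 0 fragments, too few for a ratio. The differences there (1.284 and 1.435) thus mainly reflect SLC25A25 and SLC25A23 alone. SLC25A28 exceeded SLC25A37 by 0.79 ± 0.35 in 4 of 4. Less even pairs were SLC25A42 and SLC25A16 (1.45 ± 1.15, with -0.27 in DU145 cells), SLC25A33 and SLC25A36 (0.69 ± 0.60, with -0.13 in Hep3B cells), and SLC25A12 and SLC25A13 (0.31 ± 0.43), where the sign differed between cell lines. SLC25A12 had 5 and 2 fragments in Hep3B cells.

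The relatives of uncoupling proteins, which resemble the proton carriers of brown fat, had no member higher and 3 lower of 5 tested, against 26.5% and 24.9% of all genes. SLC25A14 (chrX:129473874-129507335) had 7.62, 9.65, 8.39, and 12.7 FPKM in inputs and 4.43, 2.93, 4.50, and 6.50 FPKM in RIP. The groups did not overlap, and SLC25A14 fell 2.72-fold (log2 fold change -1.44 ± 0.32 SE, edgeR adjusted p = 0.00322). SLC25A27 (chr6:46620678-46703430), known from brain, was scarce and had 2.60, 1.85, 1.19, and 3.12 FPKM in inputs and 0.366, 0.467, 0.376, and 0.701 FPKM in RIP. It too had no overlap and fell 4.23-fold (log2 fold change -2.08 ± 0.52 SE, edgeR adjusted p = 0.00672). These values rest on 93, 75, 50, and 155 fragments in inputs and 23, 13, 4, and 31 in RIP. The log2 fold change was the lowest among members called with the same direction in 4 of 4 cell lines, within its SE of that of SLC25A36 (-2.01 ± 0.19 SE). SLC25A30 ranged over 5.72 to 28.5 FPKM in inputs and fell (log2 fold change -1.23 ± 0.25 SE, edgeR adjusted p = 0.00210) except in Hep3B cells (5.72 and 6.68 FPKM), and it did not pass with limma on log2(FPKM + 1). SLC25A34 stood at 0.223, 0.216, 0.118, and 0.168 FPKM in inputs and 1.56, 0.665, 0.847, and 0.425 FPKM in RIP, above every input, but did not pass (log2 fold change 1.49 ± 0.70 SE, edgeR adjusted p = 0.1004). Its fragments were few, with 26, 21, 6, and 17 in inputs and 52, 17, 34, and 36 in RIP. In HCT116 cells they went from 21 to 17 while the FPKM rose, so the separation of the groups holds for FPKM. SLC25A34 passed with limma on log2(FPKM + 1) (0.63, adjusted p = 0.0148), and its locus is shared with PLEKHM2 (log2 fold change 2.44). SLC25A35 stood at 2.38, 1.68, 5.06, and 2.67 FPKM in inputs and 3.15, 0.612, 2.47, and 1.09 FPKM in RIP and had a log2 fold change of -0.92 (SE 0.37, edgeR adjusted p = 0.0623). Hep3B cells alone had the higher value in RIP, and without them SLC25A35 passed (-1.29, edgeR adjusted p = 0.0158). Of the alternatives with all cell lines, it passed only with DESeq2 (-0.91, adjusted p = 0.0267) and with library totals (-1.27, edgeR adjusted p = 0.0190).

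SLC25A46 (chr5:109624934-110100857), a carrier relative of the outer membrane that acts in mitochondrial fission and fusion, had 28.6, 24.4, 32.4, and 25.5 FPKM in inputs and 14.5, 5.38, 9.71, and 10.2 FPKM in RIP. Its inputs were nearly level across cell lines (highest over lowest 1.33), the RIP libraries lay below them without overlap, and SLC25A46 fell 3.70-fold (log2 fold change -1.89 ± 0.21 SE, edgeR adjusted p = 4.98e-05). Among little characterised members, SLC25A53 (chrX:103343898-103401708) had 2.002, 0.971, 1.45, and 3.001 FPKM in inputs and 0.956, 0.375, 0.344, and 0.919 FPKM in RIP. It fell without overlap (log2 fold change -1.46 ± 0.51 SE, edgeR adjusted p = 0.0335), but the call was lost when any 1 cell line was left out (-1.44, -1.57, -1.26, and -1.65 without Hep3B, HCT116, DU145, and SW1990 cells). SLC25A43 ranged over 3.87 to 28.02 FPKM in inputs and fell in 4 of 4 cell lines (log2 fold change -0.73 ± 0.21 SE, edgeR adjusted p = 0.0141), a call lost without HCT116 or DU145 cells (-0.60 and -0.63). SLC25A45 had a log2 fold change of 0.66 (SE 0.26, edgeR adjusted p = 0.0546). It passed with DESeq2 (0.69, adjusted p = 0.0124) and without SW1990 cells (0.73, edgeR adjusted p = 0.0491). SLC25A48 had a log2 fold change of 0.24 (SE 0.75, edgeR adjusted p = 0.808), and SLC25A47, which is known from liver, reached at most 0.281 FPKM and was not tested.

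Levels also differed between cell lines, which have 1 input each and so allow a description without a test. In these bulk libraries, fewer cells holding an RNA and less of it per cell cannot be told apart. Of 38 members with at least 5 FPKM in an input, the highest input was in SW1990 cells for 11 and in each of the other cell lines for 9. The lowest was in Hep3B cells for 21, in DU145 cells for 7, and in HCT116 and SW1990 cells for 5 each, beside the high FPKM sum and the low carrier share of the Hep3B input, whose part in this count was not tested. The median ratio of highest to lowest input was 3.38. The widest differences were those of SLC25A21 (0.0312 FPKM in SW1990 cells and 65.6 in DU145 cells), SLC25A24 (0.103 in Hep3B cells and 49.2 in SW1990 cells), and SLC25A12 (0.0601 in Hep3B cells and 9.16 in HCT116 cells). SLC25A45 followed with 10.3, 0.804, 3.66, and 0.311 FPKM in inputs and 14.4, 1.76, 5.10, and 0.403 FPKM in RIP, highest in Hep3B cells in both. SLC25A6 spanned 12.3-fold between Hep3B and SW1990 inputs.

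Over the 8 libraries, which are 4 pairs that share their cells, the members with the most similar log2 levels were SLC25A10 and SLC25A38 (Pearson r = 0.98, Spearman rho = 0.90) and SLC25A3 and SLC25A39 (r = 0.97, rho = 0.90). The most opposite were SLC25A25 and SLC25A36 (r = -0.95, rho = -0.95) and SLC25A14 and SLC25A25 (r = -0.95, rho = -0.98). These values describe the libraries, and members with a mean of at least 5 FPKM were compared.

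Other genes of the same organelle were placed beside the carriers. Genes of the respiratory chain, 81 tested, had 9 higher and 56 lower in RIP (69.1%) with a median log2 fold change of -1.19. Mitochondrial ribosomal protein genes, 77 tested, had 12 higher and 50 lower (64.9%) with a median of -0.97. The SLC25 members had 34.8% lower and a median of 0.14, and all genes tested had 24.9% lower and a median of -0.05. The difference between the lists was not tested. Of 4 tested family relatives under other names, UCP3 (log2 fold change 1.96) and MTCH1 (1.08) rose, MTCH2 (-1.06) fell, and UCP2 (-0.23, edgeR adjusted p = 0.520) did not pass. MTCH1 and MTCH2 sit in the outer membrane, where MTCH2 acts as an insertase.

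**Figure D5:**
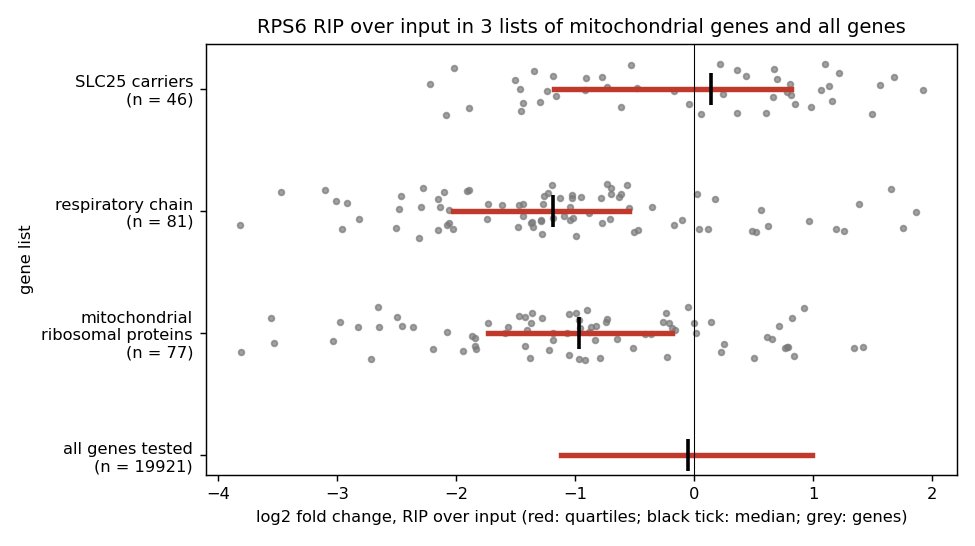
Fitted log2 fold change of RIP over input for genes of 3 lists (grey points, 1 per gene tested) and for all genes tested (no points), with the median as a black tick and the quartiles as a red bar. The SLC25 carriers spread over both sides with a median of 0.14, while the medians of the respiratory chain and of mitochondrial ribosomal proteins are -1.19 and -0.97.

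The machinery that imports carriers showed 1 higher, 7 lower, and 5 past the threshold in neither direction of 13 tested (7.69% higher and 53.9% lower, against 26.5% and 24.9% of all genes). TOMM40, the channel of the outer membrane, was the higher one (log2 fold change 1.46, edgeR adjusted p = 0.000183). The lower ones were the receptors TOMM70A (-0.61), TOMM20 (-1.95), and TOMM22 (-1.11) and the small chaperones TIMM8A (-2.52), TIMM8B (-2.39), TIMM9 (-1.32), and TIMM10B (-1.80). TIMM22, the channel of the insertase, had a log2 fold change of 0.44 (edgeR adjusted p = 0.0828). Of 13 other transporters of the inner membrane, 6 were higher (46.2%) and 4 lower (30.8%), against 26.5% and 24.9% of all genes. The higher were ABCB8 (2.15), LETM1 (1.86), SLC8B1 (1.70), SFXN3 (1.11), SFXN5 (0.91), and ABCB10 (0.81), and the lower were the pyruvate carrier subunits MPC1 (-1.44) and MPC2 (-1.23), the calcium uniporter MCU (-0.90), and SFXN4 (-0.79).

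Features of the transcripts that could bear on the values were set beside the calls. The median effective transcript length was 1.52 kb in the 13 higher, 1.76 kb in the 16 lower, and 1.49 kb in the other 17 members, and length and log2 fold change had a Spearman rho of 0.10 over the 46 members, against 0.31 over all genes tested. With mean input FPKM, rho was 0.01 over the members. The 250 bases before the RefSeq start had a median GC content of 70.0% in 12 higher, 63.0% in 12 lower, and 68.4% in 15 other members, with rho of 0.44 over these 39 entries. Over all genes tested these values were 67.6%, 63.2%, and 63.2%, with rho of 0.19, but only 57.4% had an entry, so that the check is void as a background for the members. These correlations are across genes, which are not independent replicates.

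Loci and copies limit some members. Of the 49 entries, 31 share their listed locus with another gene and 18 stand alone, and whether counting used strand is not given in the sources used here, so reads of overlapping genes may not be separated. A further 43 entries are pseudogenes or antisense genes named after members. Shares were taken of the fragments of a carrier and its pseudogenes together. Fragments listed for pseudogenes of SLC25A5, SLC25A6, and SLC25A3 reached at most 0.313%, 0.216%, and 0.0371% of this sum in any library, while those of SLC25A14 reached 8.49%, SLC25A39 2.10%, and SLC25A1 1.51%. How the counting divided reads between near-identical copies is unknown, so values of these members are uncertain to that extent.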

How the data were processed

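RNA from RPS6 RIP and from input was sequenced in 4 cell lines (TruSeq Stranded Total RNA libraries). The authors aligned reads to hg19 with TopHat2 2.0.9 after CASAVA 1.8, per the submitters' processing notes, and deposited an FPKM value and an estimated count per gene and library. The counting tool, annotation, and strand setting are not given in the sources used here. Within a library, 93.3% to 94.6% of the nonzero estimated counts below an upper limit were whole multiples (tolerance 0.05) of 1 step, between 0.673 and 1.27. This step gave whole fragments, and the largest counts were left out of the share. The fold changes, p-values, and q-values that the authors deposited for each cell line were not used. Intervals and precision rest on 1 library per kind and cell line.

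Estimated counts were rounded and tested with edgeR 4.0.16 (R 4.3.3) with TMM, the cell line as a block, a minimum mean of 10 counts over 8 libraries, and Benjamini-Hochberg adjustment over 19921 genes at 0.05. Log2 ratios used FPKM + 1. The libraries pair by cell line. Deviations from group means correlated with r of 0.80 to 0.87 within pairs and at most -0.01 between them. Taking deviations from group means by itself lowers the values between pairs, so those values add nothing to the pairing. Alternatives used DESeq2 1.42.0, limma 3.58.1, library totals, other minimum counts, recovered fragments, no block, and fits without each cell line. The script was tested on simulated counts.

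Values in every library are given for SLC25A3 to SLC25A6, 5 of the 6 highest and the 6 lowest members called in the same direction in 4 of 4 cell lines, and the 5 members with the widest input range among those with at least 5 FPKM in an input. The remaining high member is counted in all totals but not reported here or plotted by name. Other members are given by ranges, with values where a sentence turns on one. Members, classes, and lists were chosen with earlier results of these data known. Starts and promoters are from RefSeq (GRCh38.p14), in which all 48 names matched and 40 had a promoter entry. Python 3.11.15 with pandas 2.3.3, SciPy 1.17.1, NumPy 2.4.6, and matplotlib 3.10.9 was used for the other steps.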

Additional observations from a re-analysis of the deposited data

Results flagged for a closer look

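SLC25A35, a relative of uncoupling proteins, had a log2 ratio of RIP to input of 0.2953 in Hep3B cells, apart from -0.73 in HCT116 cells, -0.81 in DU145 cells, and -0.81 in SW1990 cells. The gap between Hep3B cells and the nearest other cell line was 0.931 of the whole range, above Dixon's critical value for 4 values. The search covered 46 members and marked 1, and chance alone would mark about 1 in 20 groups. The Hep3B libraries held 189 fragments of SLC25A35 in the input and 147 in RIP, and the gene shares its listed locus with RANGRF (log2 fold change -0.80).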

How the results depend on the processing

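Without the replicate block for cell line, 3 members were higher and 3 lower in RIP in place of 13 and 16, and 1427 and 1344 of all genes in place of 5282 and 4960. With library totals in place of TMM, 7 members were higher. With limma on log2(FPKM + 1), 9 were lower. When each cell line was left out in turn, between 9 and 13 members were higher and between 11 and 16 lower, and over all genes between 4448 and 4808 were higher and between 4084 and 5083 lower. Of the calls, 3 of 13 higher and 3 of 16 lower held under all 12 alternatives, and recovered whole fragments changed no call of a member. No called member changed direction. Members without a call that did were SLC25A13 (-0.13 with library totals), SLC25A15 (0.0822 and 0.0938 with limma on log2(FPKM + 1) and log2(FPKM + 0.1)), SLC25A17 (0.20 and 0.21 with these, -0.18 to 0.0841 when 1 cell line was left out, above 0 without HCT116 or DU145 cells), SLC25A28 (-0.30 with library totals, -0.13 and -0.14 with limma, -0.11 to 0.19 when 1 cell line was left out, below 0 without HCT116 cells), and SLC25A48 (-0.14 with library totals, -0.11 to 0.53 when 1 cell line was left out, below 0 without HCT116 or DU145 cells). The cause of these changes was not tested. Depth limits SLC25A2, SLC25A31, and SLC25A47, which were under a mean of 10 counts, and tested members with 10 fragments or fewer in a library. Among called members these were SLC25A12 and SLC25A24 in Hep3B cells, SLC25A21 in Hep3B and SW1990 cells, and SLC25A27 and SLC25A53 in DU145 cells. Among members without a call they were SLC25A18, SLC25A34, SLC25A41, SLC25A48, SLC25A52, and the second SLC25A10 entry.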
